A study of Mus musculus with 51 samples.

Results

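The upstream arm of interferon signalling was followed here through 10 genes out of the 24421 gene rows in the count files. The 10 were chosen by symbol for their roles, with earlier results of these data known. They are the chains of the interferon receptors (Ifnar1, Ifnar2, Ifngr1 and Ifngr2), the cytosolic RNA sensors with their adaptor (Ddx58, Ifih1, Dhx58 and Mavs) and the cytosolic DNA sensing pair (Mb21d1 and Tmem173). All 10 passed the filter on low counts in every preparation. The study asked how chronic intermittent ethanol vapor (CIE) changes gene expression in glia of the prefrontal cortex, and the comparison here asks whether these genes changed with CIE and in which preparation.

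The cortex of 17 adult male C57BL/6J mice was used, and each mouse gave 3 RNA-seq libraries, 51 in all. The 8 control mice were kept in air chambers (16 h daily, in 4 cycles of 1 week each) and received saline with pyrazole at 1 mmol/kg, a drug that slows ethanol metabolism. The 9 CIE mice breathed ethanol vapor on the same schedule after an injection of ethanol at 1.6 g/kg with the same dose of pyrazole, so that both groups carried pyrazole and handling. From each cell suspension, astrocytes (AS) were taken with ACSA2 microbeads, microglia (CD) were taken with Cd11b microbeads from what the astrocyte beads left, and a small share kept before dissociation is the total homogenate (TH). Cd11b is not a marker of microglia alone, since other myeloid cells also carry it. Gene counts per library ran from 2082289 to 10041788 in AS, from 571878 to 6026453 in CD and from 5042926 to 15594154 in TH, so that the microglia libraries were the shallowest. The 12 astrocyte markers summed to 11238 to 21130 CPM (counts scaled to library size) in AS, 351 to 1608 CPM in CD and 5181 to 10364 CPM in TH. The 12 microglial markers summed to 20582 to 41477 CPM in CD, 1553 to 6454 CPM in AS and 564 to 974 CPM in TH. These sums fitted the labels, but the AS libraries did not hold astrocyte RNA alone. In control mice 8 markers of oligodendrocytes and their precursors summed to 16091 to 23115 CPM in AS. Those sums were 1886 to 6223 CPM in CD and 1065 to 3571 CPM in TH, on each preparation's own scale. The part of these cells in the AS levels of the members was not tested.

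Type I interferons bind a receptor of the chains IFNAR1 and IFNAR2, and interferon gamma binds a receptor of the chains IFNGR1 and IFNGR2. Both receptors work through JAK kinases and STAT factors, and the type I receptor drives a complex that holds STAT2 and IRF9 and binds interferon-stimulated response elements (ISRE) in target genes. Interferon production itself starts with sensors of nucleic acid in the cytosol: RIG-I (Ddx58) and MDA5 (Ifih1) bind foreign RNA and signal through MAVS, LGP2 (Dhx58) regulates both helicases without signalling domains of its own, and cGAS (Mb21d1) binds DNA and makes the messenger that activates STING (Tmem173). The 3 RNA helicases are themselves known interferon-stimulated genes, so that the sensors stand both upstream and downstream of the receptors.

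The receptor chains Ifnar2 (16:91372783-91405589), Ifnar1 (16:91485238-91507441) and Ifngr2 (16:91547072-91565623) are neighbours on the plus strand of chromosome 16 in mm10, and Ifngr1 lies apart on chromosome 10 (10:19591949-19610229). Of the RNA sensors, Ddx58 lies at 4:40203773-40239828, Ifih1 at 2:62595798-62646255 and Dhx58 at 11:100694884-100704271, each on the minus strand. Mavs lies at 2:131234063-131248025 on the plus strand and Mb21d1 (now named Cgas) at 9:78430526-78443237 on the minus strand. Exons of 3 members overlap exons of another gene in the annotation: Ifnar2 shares 315 bases with Gm21970, Dhx58 shares 141 bases with the antisense gene Dhx58os, and Mb21d1 shares 201 bases with the pseudogene Gm8093 on the other strand. None of these partners has a row in the count files, and the strand setting of the counting is not given in the sources used here, so that reads of the antisense partners cannot be told apart from those of Dhx58 and Mb21d1. Gm21970 lies on the same strand as Ifnar2, so that reads in their shared bases cannot be told apart under any strand setting.

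Promoter windows from RefSeq (GRCm38.p6, from 250 bases before to 50 bases after the start of transcription) matched 8 of the 10 members. Dhx58 and Tmem173 were not matched. The ISRE core GAAANNGAAA, searched on both strands, occurred in 2 of the 8 members' windows, those of the RNA sensors Ddx58 and Ifih1, against 3.44% of all 32851 windows in the table. The STAT site TTCNNNGAA, which reads the same on both strands, occurred in the windows of the type I receptor chains Ifnar1 and Ifnar2, against 8.30% of all windows. The stretches around the matches are shown because both receptor chains and both sensors are members whose levels are followed next. Each is written 5′ to 3′ in the direction of the gene, with the match in capitals.
Ddx58, 4:40239804-40239833, minus strand, ISRE core on the other strand: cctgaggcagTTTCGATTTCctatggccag
Ifih1, 2:62646206-62646235, minus strand, ISRE core: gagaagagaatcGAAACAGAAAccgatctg
Ifnar1, 16:91485200-91485229, plus strand, STAT site: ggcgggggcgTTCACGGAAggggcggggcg
Ifnar2, 16:91372549-91372597, plus strand, STAT site: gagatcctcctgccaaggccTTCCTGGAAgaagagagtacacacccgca
Counted from the RefSeq start, the match of Ddx58 lies 3 to 12 bases after it and that of Ifih1 33 to 42 bases after it. That of Ifnar1 spans the RefSeq start, and that of Ifnar2 lies upstream. The gene positions given earlier are from GENCODE, whose start of Ifnar1 lies downstream of the Ifnar1 match. A match describes letters and is not evidence that a factor binds there, and the overlap of ISRE and STAT letters with other motifs was not searched.

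In control mice every member had its highest mean in the microglia libraries. On a scale set across all 51 libraries, all 10 members were higher in CD than in TH, where 37.5% of all genes tested were higher and 46.1% lower, and all 10 were higher in CD than in AS, where 35.7% of all genes were higher and 34.1% lower. Against TH, 9 members were higher in AS and Ifngr2 was lower, beside 36.2% and 40.8% of all genes. Tmem173 stood farthest above the homogenate in CD, by 5.35 on the log2 scale (SE 0.240, adjusted p = 2.20e-26, edgeR), followed by the interferon gamma receptor chain Ifngr1 by 4.51 (SE 0.174, adjusted p = 5.86e-29) and by Mb21d1 by 4.38 (SE 0.243, adjusted p = 9.60e-23, edgeR). The type I receptor chain Ifnar1 was the most even of the 10: it was 0.99 higher in CD than in TH (SE 0.0936, adjusted p = 6.40e-14), 0.79 higher in AS than in TH (SE 0.0919, adjusted p = 7.26e-11) and only 0.20 higher in CD than in AS (SE 0.0931, adjusted p = 0.0478, edgeR). That last difference lost its call with the mouse as a replicate block (adjusted p = 0.0578), with RLE scaling (adjusted p = 0.281) and with no filter (adjusted p = 0.0543). In these bulk samples fewer cells of a type and less RNA per cell cannot be told apart. The homogenate was neither dissociated nor selected with beads, so that cell type and handling cannot be told apart in the differences from TH.

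**Figure D1:**
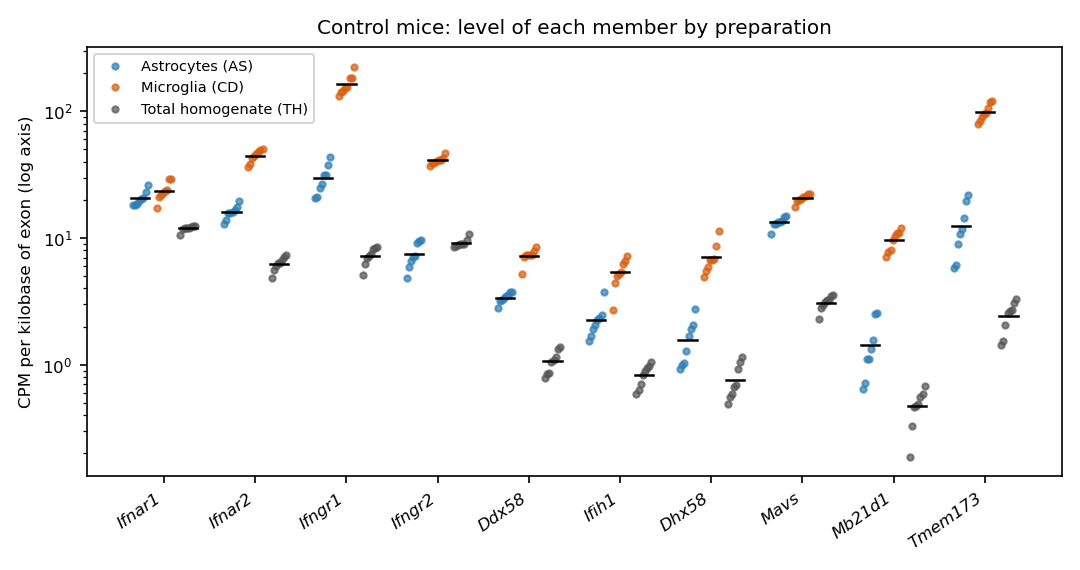
Level of each member in the 8 control mice of each preparation, as CPM per kilobase of exon on a log axis, with 1 point per library and the mean as a black line. The microglia mean lies highest for every member, with points that overlap those of astrocytes for Ifnar1 and Ifih1, and its distance to the homogenate mean is smallest for Ifnar1 and largest for Tmem173.

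Within a preparation, genes were compared as CPM per kilobase of exon. In microglia Ifngr1 led with 165 ± 30.5 CPM per kilobase (SD, n = 8 control mice), followed by Tmem173 with 98.9 ± 15.4, each above the next gene in 8 of 8 mice. Ifnar2 (44.5 ± 4.99) and Ifngr2 (41.01 ± 2.90) came next and did not separate, with Ifnar2 above Ifngr2 in 5 of 8 mice. The RNA helicases were at the low end, with Ddx58 at 7.24 ± 0.946, Dhx58 at 7.06 ± 2.07 and Ifih1 at 5.34 ± 1.40, and their order held in 6 of 8 mice at each step. The homogenate had another order, led by Ifnar1 with 11.9 ± 0.605 and Ifngr2 with 9.17 ± 0.734, while Ifngr1 stood at 7.25 ± 1.17 and Mb21d1 was lowest with 0.470 ± 0.154. In astrocytes Ifngr1 (29.7 ± 7.98) and Ifnar1 (20.6 ± 2.83) led, and Dhx58 (1.57 ± 0.637) and Mb21d1 (1.44 ± 0.735) were lowest, with Dhx58 above Mb21d1 in 5 of 8 mice.

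The astrocyte libraries also held microglial RNA. In control mice the 12 microglial markers reached 11.5% to 20.3% (median 12.5%) of their microglia level in the AS libraries, with Cx3cr1 at 12.6% and P2ry12 at 13.2%. Of these markers Sall1 alone was above 13.4%. Tmem173 lay among the markers with 12.5%, and Mb21d1 with 15.0%, Ifngr1 with 18.0% and Ifngr2 with 18.2% lay between Sall1 and the other markers. The remaining members lay above all 12 markers, namely Dhx58 with 22.3%, Ifnar2 with 35.95%, Ifih1 with 42.1%, Ddx58 with 46.8%, Mavs with 64.7% and Ifnar1 with 87.4%. How much of the astrocyte signal of any member came from microglia was not tested. This holds for Tmem173, Mb21d1, Ifngr1 and Ifngr2. It also holds for Dhx58 with 22.3%, Ifnar2 with 35.95% and the members farther above the markers, since a share above the markers can still include microglial RNA.

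**Figure D2:**
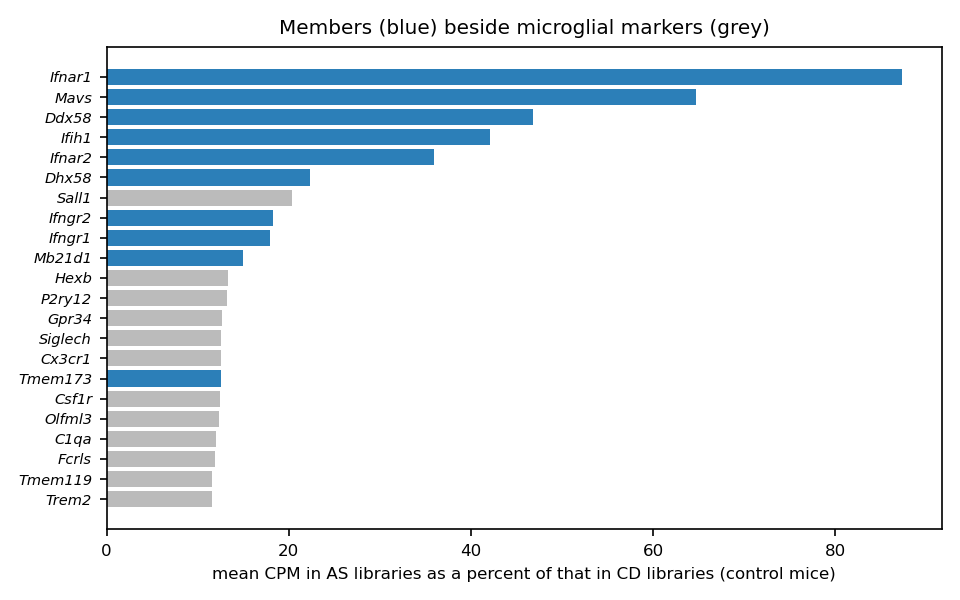
Mean CPM in the astrocyte libraries of control mice as a percent of the mean in their microglia libraries, for the 10 members (blue) and 12 microglial markers (grey). Tmem173 lies among the markers, Mb21d1, Ifngr1 and Ifngr2 lie between them and the marker Sall1, and Mavs and Ifnar1 lie farthest above them.

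After CIE, 3 of the 10 members had an adjusted p under 0.05 by edgeR in at least 1 glial preparation. The RNA sensor regulator Dhx58 rose in astrocytes and in microglia, and Ifngr2 and the adaptor Mavs fell in microglia. In astrocytes 1 of 10 members was higher and none lower by edgeR (adjusted p under 0.05 over all genes tested), beside 2.91% and 2.22% of all genes. In microglia 1 of 10 was higher and 2 of 10 lower, beside 2.31% and 1.15% of all genes. In homogenate none of the 10 passed, beside 0.193% higher and 0.0572% lower of all genes, while 4 members had an unadjusted p under 0.05, each of them higher in CIE (5.49% of all genes), and DESeq2 called 1 (Ddx58). No member had an unadjusted p under 0.05 in the lower direction there, and DESeq2 called none. No member was lower in AS by edgeR, with 1 at an unadjusted p under 0.05 (9.69% of all genes), which DESeq2 called (Ifnar1). At that unadjusted level 4 members were higher in AS (11.3% of all genes). In CD 2 were higher (9.49%) and 4 lower (7.43%). DESeq2 called 2 members higher and 1 lower in AS, and 1 higher and 3 lower in CD. Over all genes DESeq2 called more than edgeR throughout, in AS 636 against 375 higher and 530 against 286 lower. In CD it called 486 against 249 higher and 268 against 124 lower, and in TH 151 against 27 and 41 against 8. The median log2 change of the 10 members was 0.09 in AS, -0.11 in CD and 0.18 in TH, against 0.00, -0.01 and 0.01 over all genes tested.

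**Figure D3:**
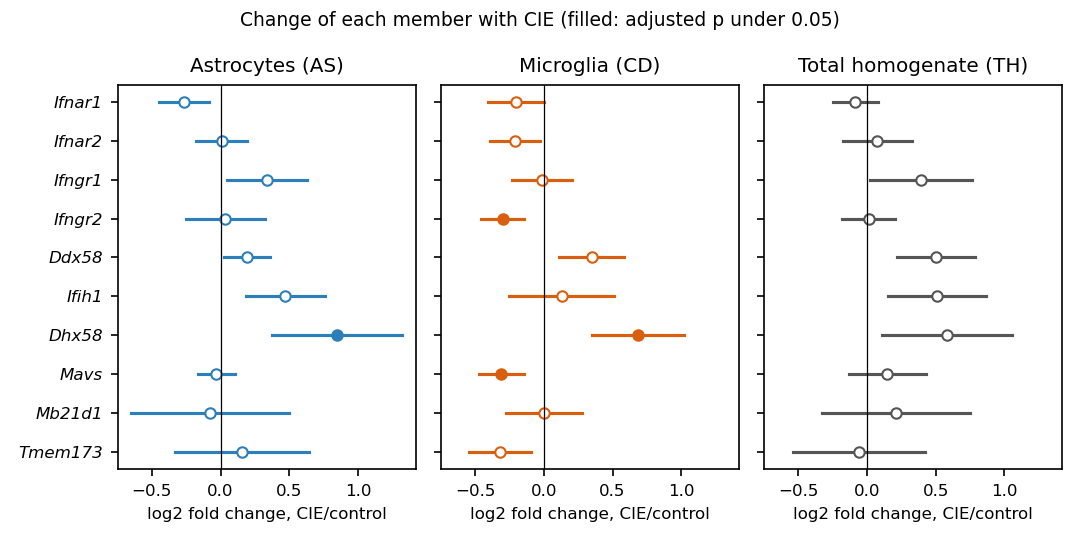
Log2 fold change of CIE over control for each member in each preparation, with its 95% confidence interval and filled points where the edgeR adjusted p is under 0.05. The filled points are Dhx58 to the right of 0 in astrocytes (0.85) and microglia (0.68), and Ifngr2 (-0.30) and Mavs (-0.31) to the left of 0 in microglia.

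Among the receptors, Ifngr2, the chain that lets the interferon gamma receptor engage JAK2, was the one that passed. In microglia it ran from 128 to 165 CPM in control mice (median 137) and from 105 to 124 CPM in CIE mice (median 115). All 9 CIE mice were below all 8 control mice, so that the groups did not overlap. How many of all genes tested separate in this way was not counted. The change was -0.30 on the log2 scale (SE 0.074, adjusted p = 0.0292, edgeR), a level 0.813 times that of the controls (140 ± 11.1 against 114 ± 7.53 CPM). The change was lower within each range of mouse numbers, by -0.21 in mice 03 to 08, -0.36 in mice 19 to 26 and -0.29 in mice 35 to 41. In astrocytes Ifngr2 ran from 20.6 to 40.4 CPM (median 29.7) in control mice and from 23.8 to 46.4 CPM (median 30.8) in CIE mice, and in homogenate from 31.7 to 39.9 (median 33.5) and from 28.0 to 45.0 CPM (median 32.0). The groups overlapped over most of their range in both, and the log2 changes were 0.03 (95% interval -0.25 to 0.32) and 0.01 (-0.18 to 0.21).

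Ifngr1, the chain that binds the ligand, did not pass in any preparation. In astrocytes it ran from 65.2 to 136 CPM (median 91.6) in control mice and from 89.6 to 159 CPM (median 120) in CIE mice, with 8 of 9 CIE mice above the control median and a log2 change of 0.34 (SE 0.139, adjusted p = 0.165, edgeR). With the microglial marker level as a term the same comparison gave 0.33 with an adjusted p of 0.0354. In homogenate it ran from 14.3 to 24.3 CPM (median 20.8) and from 16.5 to 46.7 CPM (median 26.3), a change of 0.39 (SE 0.177, adjusted p = 0.510, edgeR) in which 5 of 9 CIE mice exceeded all controls. In microglia it ran from 351 to 585 CPM (median 391) in control mice and from 350 to 451 CPM (median 428) in CIE mice, and the change was -0.01 (95% interval -0.23 to 0.21).

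The type I receptor chains were lower or level, and neither passed. Ifnar1 in astrocytes ran from 120 to 171 CPM (median 132) in control mice and from 94.7 to 140 CPM (median 116) in CIE mice. It was below all controls in 7 of 9 CIE mice, with a log2 change of -0.27 (SE 0.087, adjusted p = 0.0769, edgeR), which passed with DESeq2 (adjusted p = 0.0428), with the range of the mouse number as a term (adjusted p = 0.0317) and on leaving out mouse 39 (adjusted p = 0.0362). In microglia Ifnar1 ran from 95.2 to 154 CPM (median 121) and from 98.2 to 131 CPM (median 107), a change of -0.20 (SE 0.0973, adjusted p = 0.302, edgeR). In homogenate it ran from 61.6 to 74.3 CPM (median 70.9) and from 55.2 to 76.9 CPM (median 62.7), a change of -0.08 (95% interval -0.25 to 0.08). Ifnar2 in microglia ran from 115 to 146 CPM (median 137) in control mice and from 93.5 to 137 CPM (median 119) in CIE mice. None of the 9 CIE mice was above the control median, although the groups overlapped, and the change of -0.21 (SE 0.0878, adjusted p = 0.203, edgeR) did not pass. Its astrocyte values were level, from 48.1 to 71.0 CPM (median 59.2) and from 44.8 to 70.8 CPM (median 59.8), a change of 0.01 (95% interval -0.18 to 0.19). In homogenate they ran from 16.0 to 24.1 CPM (median 20.9) and from 16.7 to 30.2 CPM (median 21.8), a change of 0.08 (95% interval -0.18 to 0.33).

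Of the RNA sensors, Dhx58 rose most. In astrocytes it ran from 3.45 to 9.79 CPM in control mice (median 5.34) and from 5.87 to 14.5 CPM in CIE mice (median 10.2). All 9 CIE mice were above the control median and 5 of 9 were above every control, while the groups overlapped between 5.87 and 9.79 CPM. The log2 change was 0.85 (SE 0.227, adjusted p = 0.0357, edgeR), a level 1.799 times that of the controls, on 8 to 112 counts per library. In microglia Dhx58 ran from 14.6 to 34.7 CPM in control mice (median 19.8) and from 24.9 to 43.2 CPM in CIE mice (median 31.9). Again all 9 CIE mice were above the control median, and 7 of 8 control mice were below every CIE mouse. The change was 0.68 (SE 0.160, adjusted p = 0.0228, edgeR), or 1.61 times, on 15 to 218 counts per library. In homogenate it ran from 1.58 to 3.69 CPM (median 2.20) and from 1.81 to 5.56 CPM (median 3.62), with 8 of 9 CIE mice above the control median and a change of 0.58 (SE 0.226, adjusted p = 0.380, edgeR) that did not pass.

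Ddx58 and Ifih1, the helicases that signal, had positive estimates in all 3 preparations, and neither passed by edgeR in any of them. Ddx58 in homogenate ran from 5.48 to 9.75 CPM (median 7.47) in control mice and from 7.56 to 12.5 CPM (median 11.05) in CIE mice. All 9 CIE mice were above the control median and 6 were above every control, with a log2 change of 0.50 (SE 0.135, adjusted p = 0.148, edgeR) that passed with DESeq2 (adjusted p = 0.0343). In microglia it ran from 33.8 to 51.7 CPM (median 47.4) and from 40.7 to 75.8 CPM (median 60.0), with 7 of 9 CIE mice above every control and a change of 0.35 (SE 0.115, adjusted p = 0.101, edgeR), which passed on leaving out mouse 41 (adjusted p = 0.0338). In astrocytes it ran from 22.1 to 29.1 CPM (median 27.1) and from 26.4 to 35.4 CPM (median 29.8), a change of 0.19 (SE 0.0799, adjusted p = 0.170, edgeR).

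Ifih1 in astrocytes ran from 14.3 to 33.4 CPM (median 19.5) in control mice and from 22.1 to 34.5 CPM (median 27.8) in CIE mice. All 9 CIE mice were above the control median and 7 of 8 controls were below every CIE mouse, with 1 control mouse at the level of the highest CIE mice. The log2 change of 0.47 (SE 0.139, adjusted p = 0.0524, edgeR) passed with DESeq2 (adjusted p = 0.0298), with the range of the mouse number as a term (adjusted p = 0.0253), with the microglial marker level as a term (adjusted p = 0.0344) and on leaving out mouse 35 or mouse 41 (adjusted p of 0.0128 and 0.0412). In homogenate it ran from 4.71 to 8.64 CPM (median 6.98) and from 5.91 to 12.04 CPM (median 9.39), a change of 0.51 (SE 0.170, adjusted p = 0.297, edgeR). In microglia the groups covered nearly the same range, from 20.5 to 56.2 CPM (median 38.6) and from 18.5 to 58.7 CPM (median 44.9), and the change was 0.13 (95% interval -0.25 to 0.51).

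The adaptor Mavs, which sits on the mitochondrial surface and relays the signal of both helicases, fell in microglia. It ran from 51.6 to 69.4 CPM in control mice (median 63.1) and from 44.6 to 54.6 CPM in CIE mice (median 50.3). All 9 CIE mice were below the control median and 6 were below every control. The log2 change was -0.31 (SE 0.079, adjusted p = 0.0316, edgeR), a level 0.806 times that of the controls (62.2 ± 5.65 against 50.0 ± 2.89 CPM). Within the ranges of mouse numbers it was -0.33 in mice 03 to 08, -0.42 in mice 19 to 26 and -0.19 in mice 35 to 41. In astrocytes it ran from 39.4 to 56.2 CPM (median 50.2) and from 46.0 to 52.2 CPM (median 48.3), and in homogenate from 7.55 to 11.7 CPM (median 10.5) and from 9.38 to 19.1 CPM (median 10.6). The changes there were -0.03 (95% interval -0.17 to 0.11) and 0.15 (-0.13 to 0.43).

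**Figure D4:**
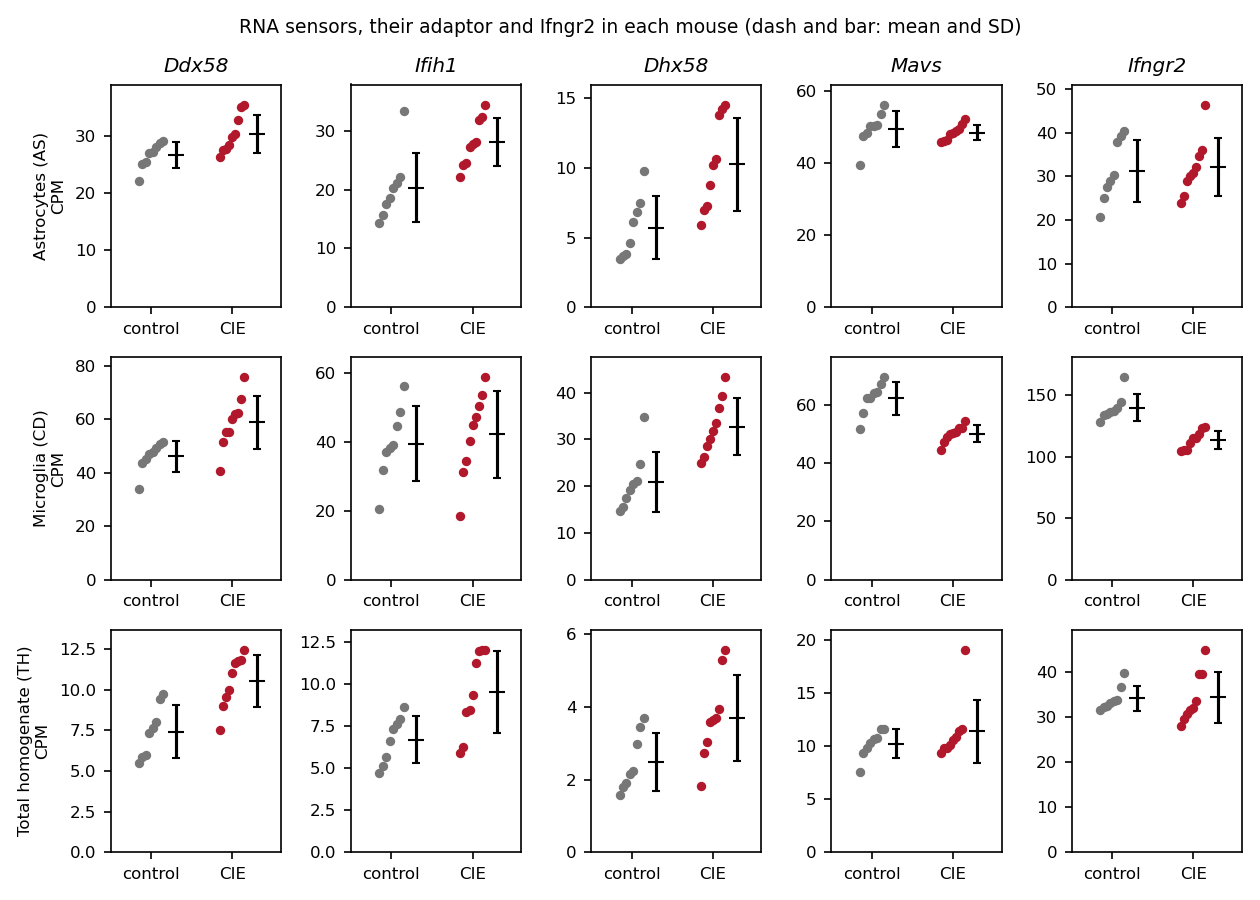
CPM of the 3 RNA helicases, Mavs and Ifngr2 in each control (grey) and CIE (red) mouse, by preparation, with the mean and SD beside each group. Dhx58 lies higher in CIE in the glial preparations, and in microglia Mavs and Ifngr2 lie lower, with no overlap between the groups for Ifngr2.

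The DNA sensing pair did not pass in any preparation. Tmem173 in microglia ran from 207 to 303 CPM (median 231) in control mice and from 148 to 232 CPM (median 198) in CIE mice, with 6 of 9 CIE mice below every control. The log2 change was -0.32 (SE 0.108, adjusted p = 0.108, edgeR), which passed with DESeq2 (adjusted p = 0.0496). It was uneven between the ranges of mouse numbers, at -0.08 in mice 03 to 08, -0.64 in mice 19 to 26 and -0.12 in mice 35 to 41. In astrocytes it ran from 18.0 to 65.7 CPM (median 34.6) and from 26.5 to 65.4 CPM (median 41.3), and in homogenate from 3.90 to 8.91 CPM (median 7.19) and from 3.48 to 10.6 CPM (median 6.404). Those groups overlapped widely, and the changes were 0.15 (95% interval -0.33 to 0.64) and -0.06 (-0.54 to 0.42).

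Mb21d1, the DNA sensor itself, was level in microglia, with 28.1 to 43.4 CPM (median 38.0) in control mice and 20.1 to 43.1 CPM (median 40.4) in CIE mice, a log2 change of 0.00 (95% interval -0.27 to 0.28). In astrocytes it ran from 2.99 to 11.7 CPM (median 5.60) and from 2.42 to 12.5 CPM (median 6.49), and in homogenate from 0.764 to 2.77 CPM (median 1.96) and from 1.34 to 4.07 CPM (median 1.97). The groups overlapped widely in astrocytes, while in homogenate 2 CIE mice were above every control and 2 controls were below every CIE mouse, with changes of -0.07 (95% interval -0.65 to 0.50) and 0.21 (-0.33 to 0.75). The astrocyte libraries held 6 to 67 counts of Mb21d1.

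The calls lay close to the threshold. That of Dhx58 in microglia held in 14 of 17 fits that each left out 1 mouse and was lost without mouse 20, 26 or 36 (adjusted p up to 0.0578). In astrocytes it held in 8 of 17 and was lost without mouse 03, 05, 22, 23, 24, 26, 36, 37 or 40 (adjusted p up to 0.0808), while the log2 change stayed between 0.75 and 0.97. The call of Ifngr2 held in 8 of 17 fits and was lost without mouse 05, 19, 20, 25, 26, 35, 36, 39 or 40 (adjusted p up to 0.0699, log2 change from -0.31 to -0.25). The call of Mavs held in 6 of 17 and was lost without mouse 03, 05, 19, 20, 24, 25, 36, 37, 39, 40 or 41 (adjusted p up to 0.0804, log2 change from -0.33 to -0.27). With no filter on low counts neither Ifngr2 (adjusted p = 0.0507) nor Mavs (adjusted p = 0.0558) passed in microglia.

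Markers of other cells moved with CIE in the microglia libraries. All 9 neutrophil markers tested rose, S100a8 by 2.95 on the log2 scale (SE 0.677, adjusted p = 0.0204, edgeR) and S100a9 by 2.89 (SE 0.652, adjusted p = 0.0185), and their summed level over the 10 listed in the files ran from 95.7 to 241 CPM in control mice and from 88.8 to 6159 CPM in CIE mice. The 4 CIE mice 23, 26, 39 and 41 exceeded 2 times the highest control mouse. Without these 4 mice no member passed, while the log2 changes were 0.66 for Dhx58 (adjusted p = 0.115), -0.30 for Ifngr2 (adjusted p = 0.182) and -0.34 for Mavs (adjusted p = 0.141), close to the 0.68, -0.30 and -0.31 with all mice. That fit called 87 genes in all, against 249 higher and 124 lower with all mice. The smallest adjusted p of a member there was that of Ddx58, with a change of 0.46 (adjusted p = 0.0895, edgeR). With the neutrophil marker level as a term the changes of Dhx58, Ifngr2 and Mavs were 0.66, -0.30 and -0.32, again with none past the threshold (adjusted p of 0.164, 0.164 and 0.172). This fit called 61 genes in all, and Ddx58 again had the smallest adjusted p of the members, with 0.52 (adjusted p = 0.0581, edgeR). Of the 12 microglial markers 3 fell in microglia libraries (Fcrls, Gpr34 and Trem2), with a median change of -0.31 over the list. Ifngr2, Mavs and Tmem173 were near this value, and Ifnar1 (-0.20) and Ifnar2 (-0.21) were less low. Ifngr1 (-0.01) and Mb21d1 (0.00) were level, and the RNA helicases had positive estimates. The summed level of the microglial markers ran from 25766 to 37797 CPM in control mice and from 18229 to 27348 CPM in CIE mice. With the microglial marker level as a term, Ifngr2 was at -0.30 (adjusted p = 0.0804), Mavs at -0.31 (adjusted p = 0.0887) and Dhx58 at 0.61 (adjusted p = 0.0868), while Tmem173 went to -0.10 (SE 0.118, adjusted p = 0.698), Ifnar2 to -0.10 (SE 0.107, adjusted p = 0.650) and Ifnar1 to -0.13 (SE 0.123, adjusted p = 0.609). The fit with the microglial term called 547 genes in all, and Ddx58 was at 0.44 in it (adjusted p = 0.0848, edgeR). The median summed marker level of CIE mice (22762 CPM) lay below that of the lowest control mouse. The microglial term thus overlaps with treatment, and this fit cannot separate them. Whether the number of microglia or their state lay behind the lower values was not tested. In the astrocyte libraries none of the 12 microglial markers passed, and of the 8 markers of border macrophages and monocytes tested, Cd163 (1.37, SE 0.281, adjusted p = 0.0103, edgeR) and Siglec1 (1.51, SE 0.360, adjusted p = 0.0210) rose, with a summed level of the list of 57.7 to 227 CPM in control and 88.8 to 336 CPM in CIE mice. Of the other lists in astrocyte libraries, 1 of 9 neuronal genes (Tubb3, 1.09), 1 of 8 oligodendrocyte genes (Mobp, 1.03) and the astrocyte markers Gjb6 (0.66) and Sox9 (-0.39) passed, and Mobp (1.70) also passed in microglia. The neutrophil markers summed to 1.098 to 15.0 CPM in control and 3.43 to 192 CPM in CIE astrocyte libraries. The part of these cells, and that of microglial RNA, in the higher Dhx58 of the astrocyte libraries was not tested. In homogenate none of the 6 neutrophil markers tested passed, with sums of 3.501 to 25.7 CPM in control and 5.14 to 803 CPM in CIE mice.

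Ratios of 2 members within a library depend on no scaling between libraries, and are given as descriptions with no test because they were chosen after the values were seen. In microglia the ratio of Dhx58 to Mavs, per kilobase, ran from 0.222 to 0.511 in control mice (median 0.336) and from 0.537 to 0.810 in CIE mice (median 0.675). The groups did not overlap, with a difference of 0.98 between the mean log2 ratios. This ratio sets a member called higher over a member called lower in the same libraries, which favours such a separation. In microglia the groups overlapped for Dhx58 to Ifih1 (0.749 to 4.23 in control mice, 1.38 to 3.86 in CIE mice). They also overlapped for Dhx58 to Ddx58 (0.622 to 2.21 and 0.906 to 1.68). All 9 CIE mice were above the control median in both. In astrocytes the ratio of Dhx58 to Mavs ran from 0.0665 to 0.211 (median 0.124) and from 0.123 to 0.316 (median 0.216), and 8 of 9 CIE mice were above the control median. In homogenate it ran from 0.164 to 0.376 (median 0.236) and from 0.189 to 0.538 (median 0.321), with more overlap. The ratio of Ifngr1 to Ifngr2 was above the control median in all 9 CIE mice of both glial preparations, with medians of 4.05 and 4.90 in astrocytes and 3.94 and 4.92 in microglia, although the groups overlapped in both. In homogenate the medians were 0.769 and 1.17, with 6 of 9 CIE mice above the control median. The ratio of Ifnar1 to Ifnar2 in astrocytes had medians of 1.30 and 1.05, and 1 of 9 CIE mice was above the control median.

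**Figure D5:**
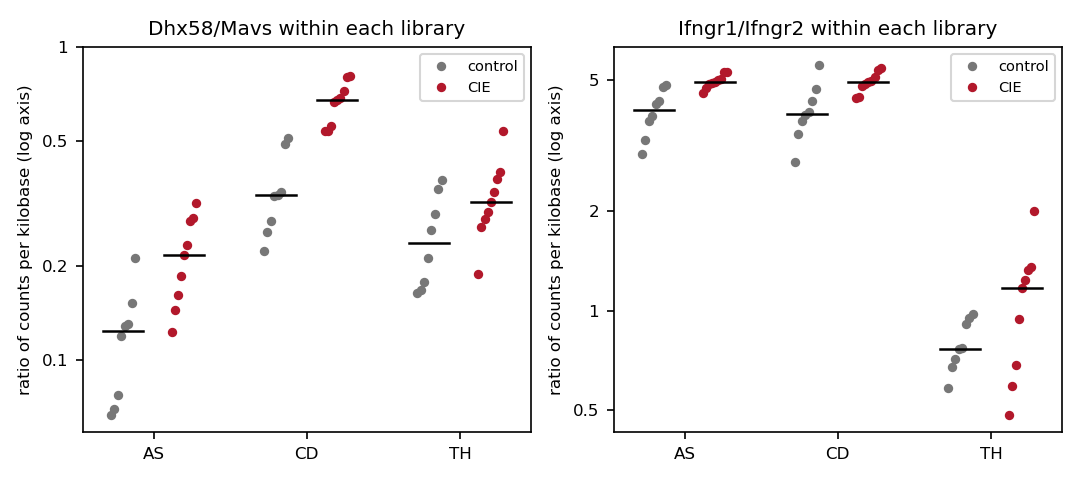
Ratio of Dhx58 to Mavs (left) and of Ifngr1 to Ifngr2 (right) within each library, per kilobase and on log axes, for control (grey) and CIE (red) mice with the median as a black line. In microglia (CD) the CIE mice lie above all controls for Dhx58/Mavs (0.537 to 0.810 against 0.222 to 0.511).

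No member's response to CIE was shown to differ between preparations. The difference of the responses passed for none of the 10 members between AS and TH (0.00695% of all genes tested), between CD and TH (0.828%) or between CD and AS (0.529%). At an unadjusted p under 0.05 there were 0, 3 and 2 members, beside 4.99%, 11% and 10.9% of all genes. The response with the smallest adjusted p was that of Mavs in CD against TH, with a difference of -0.47 (SE 0.131, adjusted p = 0.0768, edgeR, and 0.0647 with the mouse as a replicate block), followed by Mavs in CD against AS with -0.30 (SE 0.126, adjusted p = 0.341) and Ifngr2 in CD against AS with -0.36 (SE 0.153, adjusted p = 0.361). The calls in microglia are thus not shown to differ from the responses in homogenate.

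Other genes of the pathway were taken from lists that were put together by role, and their changes were not tested against those of the members. In the JAK-STAT relay, Stat2 and Irf9, which act together at the ISRE, rose in both glial preparations, and the kinases Jak1, Jak2 and Tyk2 did not pass. Stat2 rose by 0.36 in astrocytes (SE 0.0896, adjusted p = 0.0260, edgeR) and 0.83 in microglia (SE 0.155, adjusted p = 0.00594), and Irf9 by 0.49 (SE 0.133, adjusted p = 0.0385) and 0.38 (SE 0.0744, adjusted p = 0.00771). Neither passed in homogenate. Among the 10 kinases and interferon regulatory factors below the sensors, 1 passed in each preparation and it was Irf7, an amplifier of type I interferon production, which rose by 1.07 in astrocytes (SE 0.214, adjusted p = 0.00914), 1.199 in microglia (SE 0.218, adjusted p = 0.00530) and 1.06 in homogenate (SE 0.195, adjusted p = 0.0216, edgeR). The kinase Tbk1 and the factor Irf3, which act directly below MAVS and STING, did not pass.

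Other sensors of nucleic acids also rose. Zbp1, a sensor of Z-form nucleic acid, rose by 1.98 in astrocytes (SE 0.408, adjusted p = 0.0103, edgeR) and 2.01 in microglia (SE 0.369, adjusted p = 0.00561), from 2.86 ± 2.173 to 11.5 ± 4.53 CPM, and Ifi204, of the interferon-inducible p200 family, rose by 1.65 (SE 0.401, adjusted p = 0.0228) and 1.79 (SE 0.314, adjusted p = 0.00469). Eif2ak2, the RNA-activated kinase PKR, rose in microglia by 0.52 (SE 0.122, adjusted p = 0.0241), which made 3 of 10 tested there, 2 of 10 in astrocytes and 0 of 8 in homogenate. Among the 8 regulators of RIG-I, MAVS and STING, the mitochondrial protein Nlrx1 rose in astrocytes by 0.50 (SE 0.0986, adjusted p = 0.00891) and Trim25, the ubiquitin ligase of RIG-I, rose in microglia by 0.47 (SE 0.111, adjusted p = 0.0249). Of the 6 feedback inhibitors of the receptors, Ptpn2, a phosphatase of JAK and STAT proteins, fell in astrocytes by 0.37 (SE 0.104, adjusted p = 0.0465), and Usp18, which binds IFNAR2 and blocks the type I receptor, rose in microglia by 0.87 (SE 0.219, adjusted p = 0.0309). Of the 8 enzymes that limit self nucleic acids, Adar rose in microglia by 0.38 (SE 0.0942, adjusted p = 0.0305, edgeR), and none passed elsewhere. None of the 3 tested of 7 related cytokine receptors in the files passed in any preparation.

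The interferons themselves were at or near 0. Of 23 listed ligand genes 21 had a row in the files and none reached the filter in any preparation, with 5 counts in all 17 astrocyte libraries together, 23 in the microglia libraries and 10 in homogenate. No comparison of the ligands was possible at this depth.

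Over all 51 libraries, the genes whose log2 CPM, each less its own mean, lay closest to that of Dhx58 were Ppcdc (root mean square difference 0.375), Bst2 (0.384) and H2-T23 (0.415), against a median of 1.58 over 14378 genes. For Ifngr2 they were Smap2 (0.208), Trpv2 (0.241) and Man1c1 (0.247), against a median of 1.30. For Mavs they were Nfatc3 (0.218), Lpcat3 (0.235) and Dnm2 (0.235), against a median of 1.30. The measure includes the differences between preparations as well as those between mice.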

How the data were processed

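Poly(A) RNA of 51 libraries from 17 mice was sequenced on an Illumina HiSeq with a directional kit. The deposited values are raw counts per gene symbol, made by the authors: reads were demultiplexed (bcl2fastq 2.17), trimmed (Cutadapt 1.8), aligned to mm10 (STAR 2.5.0a), stripped of duplicates (Picard 1.141) and counted over genes (HTSeq 0.6.1p1). The annotation release and strand setting are not given in the sources used here. Libraries that the study set aside were not analysed here. HTSeq's rows that name no gene (no feature, 11.3% to 41.0% of the rows' total; ambiguous, 0.16% to 0.56%) were left out of library sizes. No libraries had identical values.

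Each preparation was fitted with edgeR 4.0.16 (R 4.3.3, filterByExpr, TMM, quasi-likelihood test, 2-sided) with treatment as the only term, and p-values were adjusted over all genes tested by Benjamini-Hochberg with a threshold of 0.05. CPM are counts divided by the scaled library size. Preparations were compared in 1 fit of all 51 libraries. Lengths were union exons of GENCODE M21. Python 3.11 scripts gave ratios and promoter matches. The code was tested on simulated data. Alternatives were DESeq2 1.42.0, RLE scaling, no filter, marker or mouse-number terms, subsets of mice and each mouse left out. Mouse number ranges are not called a batch in the labels.

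The same mouse gave all 3 preparations, so that the mouse pairs the libraries between preparations. The correlation of deviations from the group means had a median of 0.149 over mice for AS and CD, 0.112 for AS and TH and 0.0394 for CD and TH.

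Members, lists and tests were chosen with earlier results of these data known. Named genes were the 10 members, up to 4 called genes of each list and preparation with the smallest adjusted p, the 3 genes most like each called member, and the first 2 markers of each list. One listed gene is not reported here. Other markers and 2 alternatives (mice with high neutrophil markers left out, and the microglial marker term in microglia) were chosen after seeing the data. Libraries of a group come from separate mice.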

Additional observations from a re-analysis of the deposited data

Results flagged for a closer look

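In 60 groups of 8 or 9 libraries (10 members, 3 preparations, 2 treatments) the highest or lowest library was set against the gap to its neighbour, by Dixon's ratio on log2 CPM, a rule that chance meets in about 1 in 20 groups. There were 4 such libraries. Ddx58 was lowest in the microglia of control mouse 19, with 33.8 CPM on 38 counts against 43.8 CPM in the next mouse. Ifnar1 was lowest in the homogenate of control mouse 35, with 61.6 CPM on 933 counts against 69.6 CPM. Mavs was highest in the homogenate of CIE mouse 23, with 19.1 CPM on 141 counts against 11.7 CPM. Mb21d1 was lowest in the microglia of CIE mouse 23, with 20.1 CPM on 12 counts against 31.0 CPM. None of the 4 is a called comparison.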

How the results depend on the processing

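The number of members higher in CIE in astrocytes, 1, was 2 with DESeq2 and with the mouse number range as a term, 3 with the microglial marker level as a term, and 0 to 2 on leaving out 1 mouse. The number lower there, 0, was 1 with DESeq2 and with the mouse number range as a term, and 0 to 1 on leaving out 1 mouse. In microglia the number higher, 1, was 0 with the neutrophil or microglial marker level as a term and without the 4 CIE mice with high neutrophil markers, and 0 to 2 on leaving out 1 mouse. The number lower, 2, was 3 with DESeq2, 1 in mice numbered 19 and up, 0 with no filter, with either marker term and without those 4 mice, and 0 to 2 on leaving out 1 mouse. In homogenate the number higher, 0, was 1 with DESeq2. Over all genes DESeq2 also called more than edgeR in each preparation and direction. The direction of a value near 0 turned in astrocytes for Ifnar2 with the microglial marker term (-0.00337) and for Mavs in mice numbered 19 and up (0.00809). In microglia it turned for Ifngr1 with the neutrophil term (0.00666), with the microglial marker term (0.0844) and without the 4 mice (0.00880), and for Mb21d1 with DESeq2 (-0.00489), with the mouse number range (-0.00405), in mice numbered 19 and up (-0.0871) and with the microglial marker term (-0.0326). On leaving out 1 mouse the log2 change ran from -0.0418 to 0.0458 for Ifnar2, -0.0613 to 0.0917 for Ifngr2 and -0.267 to 0.0973 for Mb21d1 in astrocytes, from -0.0337 to 0.0694 for Ifngr1 and -0.0281 to 0.0661 for Mb21d1 in microglia, and from -0.0455 to 0.0519 for Ifngr2 and -0.179 to 0.0225 for Tmem173 in homogenate. With the mouse as a replicate block, the level of Ifnar1 in CD over AS was 0.20 (adjusted p = 0.0578), and the block changed no other call. With RLE that level was 0.11 and with no filter 0.21, neither past the threshold. The cause of these changes was not tested. Dhx58, Ifih1 and Mb21d1 had under 20 counts in some libraries.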
